A study of Arabidopsis thaliana with 4 samples.

Results

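Defensin-like genes encode small secreted peptides held together by disulphide bonds between conserved cysteines, and Arabidopsis carries an unusually large and fast-evolving set of them. The members were the nuclear protein-coding genes whose annotated product contains "defensin-like" or whose symbol is LCR (low-molecular-weight cysteine-rich) or PDF (plant defensin) followed by a number. The rule found 200 of 27444 genes. Among them, 5 carry a PDF symbol for another reason (the protodermal factors PDF1 and PDF2, prefoldin 2, also PDF2, and the peptide deformylases PDF1A and PDF1B) and were set aside, which left 195 members. The annotation's own family list places 15 of these among the plant defensins (7 of group PDF1, 6 of PDF2 and 2 of PDF3, some listed under an LCR symbol), and the other members were 73 LCR genes and 107 genes named only by their product, called DEFL below.

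Accessible chromatin was profiled with ATAC-seq, where Tn5 transposase cuts exposed DNA and leaves adaptors at the cuts. Flowers of Columbia-0 plants at 4 weeks gave 2 wild-type (WT) libraries and 2 libraries of mbd9-3, a T-DNA line of MBD9, which encodes a protein with a methyl-CpG-binding domain found together with SWR1, the complex that deposits the histone variant H2A.Z. The deposited lists held 44004 and 43962 peaks in WT replicates 1 and 2 and 45208 and 37609 peaks in mbd9-3 replicates 1 and 2. A gene was counted as having a peak in a library where a summit, the highest position of a peak, lay between 1 kb upstream of its transcription start site (TSS) and its annotated end. Peak strength was compared within a list as a rank percentile of the fold enrichment over background, where 100 is the strongest. Fold enrichment itself is not comparable between lists. The values given below for single genes describe each list, and their order between libraries can differ from that of the ranks. The read depth behind each peak is not part of these lists, and the paper calls the replicates of each genotype biological, without saying in the sources used here how the plants were divided between them. In whole flowers, a site open in few cells and one weakly open in many cannot be told apart. Of 10 floral regulators taken as markers of the tissue, 7 (LFY, AP1, AG and SEP1 to SEP4) had a peak in all 4 libraries and AP2, AP3 and PI in fewer. The share in all 4 was 58.1% over all genes and 65.5% in genes over 1500 bp outside the rule. The count of 7 in 10 is near these shares and does not mark the tissue.

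Plant defensins of the PDF1 group are antimicrobial, and PDF1.2 is the standard marker of the combined jasmonate and ethylene response, in which the factors ERF1 and ORA59 act through the GCC box (GCCGCC). Many LCR and DEFL genes are instead active in pollen, pistil or ovule, and the related LURE peptides attract the pollen tube from the synergid cells of the ovule, where MYB98 controls their expression. Most members share a simple gene structure, in which the first coding exon carries the signal peptide and the second carries the cysteine-rich mature peptide.

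Cysteine codons and coding exons were counted in the annotated sequence. The signal peptide was not examined, and the codons after the first 25 were taken as the mature part. LCR genes are cysteine-rich by name, so the cysteine count is a description of the members. A median of 8 cysteine codons (range 3 to 19) followed the first 25 codons, against a median of 2 in other genes weighted to the same lengths, and the median coding sequence had 81 codons. Exactly 2 coding exons were annotated in 188 members, or 96.4%, against 28.3% of genes of like length. The strongest member in the data, AT5G37473, and the LCR gene whose summits coincided most closely, LCR63, are shown with the last 60 bases of the intron in lower case and the second coding exon in capitals, because that exon held most of the summits described below (TAIR10; chr5:14870836-14871047, minus strand, and chr4:14696243-14696478, plus strand).
AT5G37473: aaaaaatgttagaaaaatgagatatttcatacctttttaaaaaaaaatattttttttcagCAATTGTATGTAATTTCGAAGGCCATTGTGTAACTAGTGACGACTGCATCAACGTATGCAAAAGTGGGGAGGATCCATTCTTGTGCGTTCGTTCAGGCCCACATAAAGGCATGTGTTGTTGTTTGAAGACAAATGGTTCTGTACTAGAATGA
LCR63: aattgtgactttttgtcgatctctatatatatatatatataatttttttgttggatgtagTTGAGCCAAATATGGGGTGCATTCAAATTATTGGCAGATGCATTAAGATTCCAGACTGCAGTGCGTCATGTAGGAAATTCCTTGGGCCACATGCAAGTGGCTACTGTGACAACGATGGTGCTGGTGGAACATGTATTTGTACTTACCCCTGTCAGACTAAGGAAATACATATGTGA
The G and C content of the intron bases printed was 15% in AT5G37473 and 21.7% in LCR63, against 42.1% and 43.8% in the coding exons that follow. The strongest summits of the 4 libraries fell on bases 76 to 79 of this exon in AT5G37473 and on bases 92 to 98 in LCR63.

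A summit within the 200 bp before the TSS in all 4 libraries was found at 3 members (1.54%, against 6.77% of genes of like length): LCR69, which is PDF2.2, AT3G24508 and AT4G21720. The last 120 bases before each TSS are shown with capitals from the most distant to the nearest of the libraries' summits (the one nearest the TSS in each library), all on the plus strand (chr2:528059-528178, chr3:8929978-8930097 and chr4:11542310-11542429).
LCR69: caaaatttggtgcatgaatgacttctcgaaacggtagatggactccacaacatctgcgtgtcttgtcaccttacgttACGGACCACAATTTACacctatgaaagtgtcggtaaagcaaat
AT3G24508: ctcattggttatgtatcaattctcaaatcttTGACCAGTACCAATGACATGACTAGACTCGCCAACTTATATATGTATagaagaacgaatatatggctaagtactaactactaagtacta
AT4G21720: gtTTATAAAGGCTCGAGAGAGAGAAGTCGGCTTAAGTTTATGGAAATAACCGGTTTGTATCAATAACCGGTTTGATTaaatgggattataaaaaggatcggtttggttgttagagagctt
The summits of LCR69 lay at -43, -28, -43 and -36 bp from the TSS, a stretch of 16 bp over the 4 libraries. Those of AT3G24508 spread over 47 bp and those of AT4G21720 over 75 bp, and both also lay in the window of a neighbouring gene.

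A peak was present at 75 and 77 of the 195 members in WT replicates 1 and 2, and at 78 and 76 members in mbd9-3 replicates 1 and 2. These are 38.5%, 39.5%, 40% and 39.0%, and the 95% Wilson intervals of the 4 shares run from 31.9% at the lowest to 47.0% at the highest. Over all genes tested a peak was present at 75.3%, 73.8%, 75.6% and 68.3%. These shares use every row of the lists, also rows with a −log10 q below 1.3. Without such rows 65, 75, 69 and 68 members had a peak. The mean difference from genes of like length was then -7.27 points, against -8.24 with every row. Members are short genes, with a median length of 554 bp against 2087 bp in other genes. In other genes weighted to the lengths of the members, the shares were 49.6%, 46.5%, 51.4% and 42.3%, so members were below them in every library, with a mean difference of -8.24 ± 3.81 percentage points (SD over 4 libraries).

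That difference did not hold against genes weighted to base composition as well, in coarser classes of length. The windows of members had a median G and C content of 29.5%, against 37.0% in other genes. For this the length classes were up to 500, 700 and 1000 bp and above, and 193 of the 195 members had other genes in their class. Weighted to these classes and the G and C content of the members, other genes had a peak in 35.3%, 36.7%, 37.1% and 31.9% of cases. The members were then 3.97 ± 2.07 points above them (SD over 4 libraries). Length classes and composition both changed between these comparisons, so their parts cannot be told apart. Members also had more distant neighbours, with a median of 722 bp to the nearest protein-coding gene against 415 bp at like length. When summits that also lay in the window of another gene were left out, the difference from genes of like length was 0.08 points, with members at 27.7%, 25.6%, 25.6% and 26.2% and genes of like length at 27.0%, 25.6%, 29.0% and 23.3%. Whether base composition or neighbours set the difference was not tested.

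**Figure D1:**
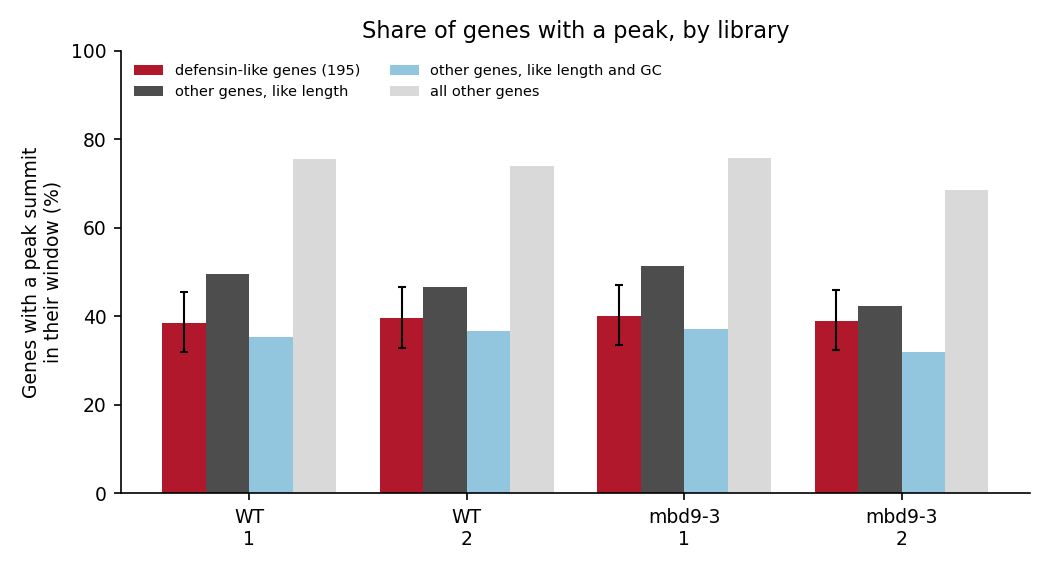
Share of genes with a peak summit between 1 kb upstream of the TSS and the gene end (y axis, percent) in each library (x axis), for the 195 defensin-like genes (red, with 95% Wilson intervals), other genes weighted to their lengths (dark grey), other genes weighted to their lengths and G and C content (blue), and all other genes (light grey). In each library the members lie below genes of like length and above genes of like length and composition. The length classes were coarser where composition was weighted.

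A peak in all 4 libraries was found at 52 members (26.7%), against 58.1% of all genes and 31.9% of genes of like length. No peak in any library was found at 85 members (43.6%), against 12.4% of all genes and 33.9% at like length. Members of different length differed too. None of the 5 members of up to 300 bp had a peak in any library (against 60.1% of other genes of that length), 10 of 70 members over 300 and up to 500 bp had one in all 4 (14.3%, against 25.3% of other genes of that length), and 16 of 36 over 700 and up to 1000 bp did (44.4%, against 41.5%). Of 24 members with no other gene within 2 kb, 5 had a peak in any library (20.8%), against 46.6% of genes of like length with such a distance. This did not hold as strongly for all 65 members with no other gene within 1 kb, at 47.7% against 54.5%. In the 130 members with a gene within 1 kb it was 60.8% against 70.5%. The mean share per library with a peak was 36.2% against 37.9% in the 65. In the 130 members, 40.8% had a peak on average, against 50.9%. The shortest member, AT5G35195 (177 bp), had none, and the longest, AT5G55565 (3572 bp), had a peak in 3 libraries at fold enrichments of 3.28, 2.86 and 2.58, in both WT libraries and mbd9-3 replicate 1.

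**Figure D2:**
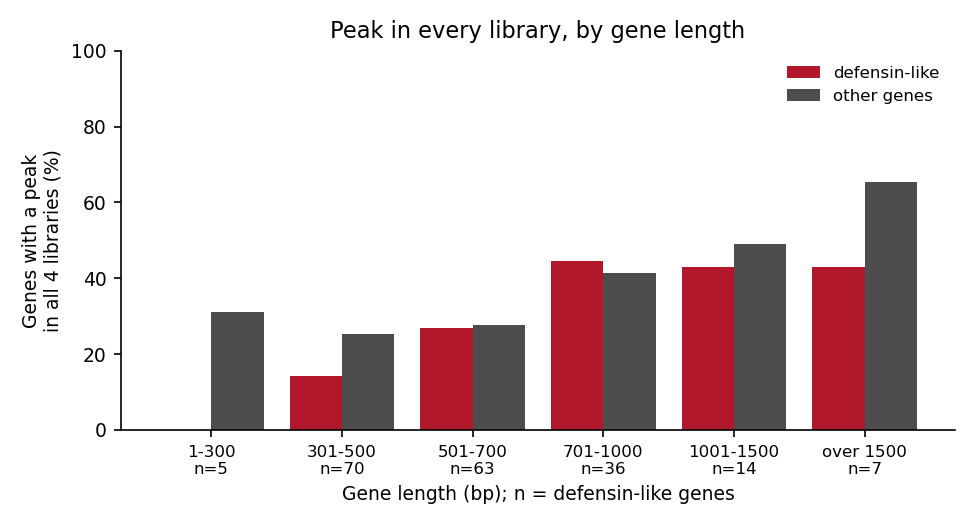
Percentage of genes with a peak in all 4 libraries (y axis) by gene length in bp (x axis, with the number of defensin-like genes in each class), for defensin-like genes (red) and all other nuclear protein-coding genes (grey). The share of members is 0 of 5 in the shortest class, 14.3% over 300 and up to 500 bp and 44.4% over 700 and up to 1000 bp.

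Where a member had a peak, it was of middling strength. The median rank percentile of the strongest peak was 43.0, 53.6, 55.4 and 48.3 among members in WT replicates 1 and 2 and mbd9-3 replicates 1 and 2, against 58.6, 61.5, 58.6 and 57.8 in genes of like length. The mean difference was -9.05 ± 5.11 points (SD over 4 libraries), but it was -2.75 points among peaks with a −log10 q of at least 5 and 0.392 with windows from 2 kb upstream. Against genes of like length and composition, in the coarser length classes, it was -5.66 ± 7.43 points, which is less than its own SD over libraries. In WT replicate 2 the members ranked higher.

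Few summits of members lay at the TSS. In the 200 bp before the TSS, where promoters of active genes are commonly open, a summit was found at 5, 5, 3 and 6 members in WT replicates 1 and 2 and mbd9-3 replicates 1 and 2, or 2.44 ± 0.645% (SD over 4 libraries). The share was 12.6 ± 0.986% in genes of like length and 25.4%, 29.8%, 24.2% and 26.5% over all genes. The first 200 bp of the gene held a summit at 2, 3, 5 and 3 members (1.03% to 2.56%), against 8.90% to 12.3% at like length. Over all 4 libraries 9 members (4.62%) had a summit before the TSS in at least 1 library, against 20.8% of genes of like length. They were LCR69, AT3G24508, AT4G21720, PDF1.2b, AT1G31772, PDF1.5, PDF2.1, LCR68 and PDF2.5. Of the 9, 6 are plant defensins (LCR68 is PDF2.3), which make up 15 of the 195 members. Among these 6, only LCR69 had such a summit in all 4 libraries. PDF1.2b had one in 2 libraries, and PDF1.5, PDF2.1, LCR68 and PDF2.5 in 1 each.

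Members were below genes of like length under every way of counting tried. The difference was smallest where base composition was weighted as well, in coarser length classes. Among the 129 members with an annotated 5′ UTR the share was 2.33% to 4.65%, against 15.7% to 20.1% at like length, and none of the 66 members without one had such a summit in any library, which allows up to 4.55% by counting error. With the start codon in place of the TSS the counts were 5, 5, 6 and 6 members. Where at least 90% of the 32-base stretches of the window were unique in the genome, which matters because reads with several matches were discarded, the share was 1.73% to 3.47% against 13.2% to 15.5%. The 200 bases before the TSS had a median G and C content of 25.5% in members and 31.5% in other genes. In other genes weighted to the coarser length classes and this content of members, the share was 4.19%, 5.63%, 4.24% and 4.83%. This was still above the members in every library, by 2.29 ± 0.706 points (SD over 4 libraries) in place of 10.2. The part of base composition in that change was not tested.

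**Figure D3:**
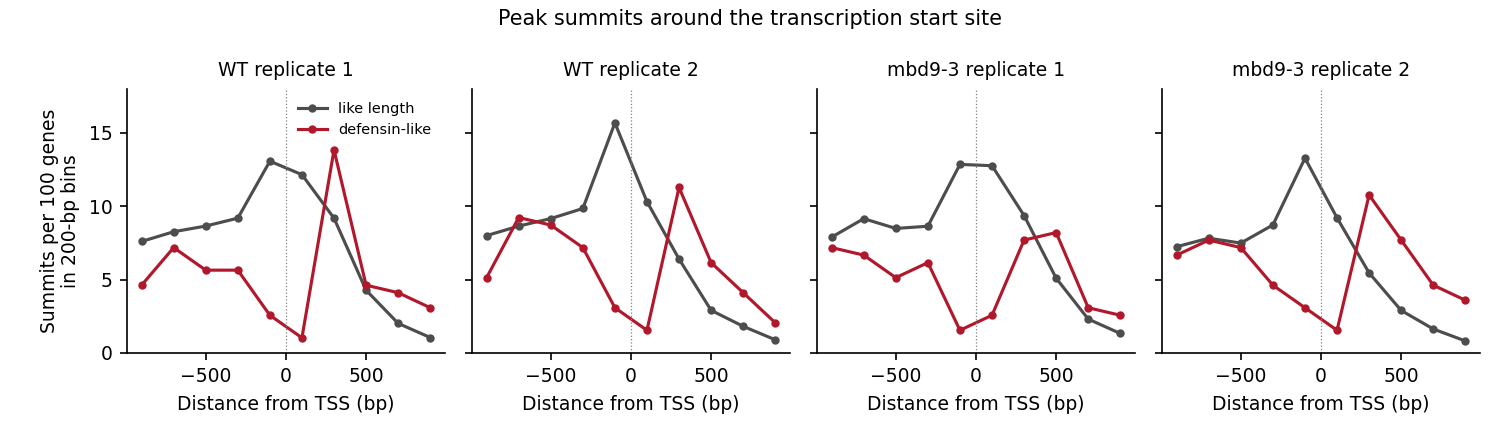
Peak summits per 100 genes (y axis) in bins of 200 bp by distance from the TSS in bp (x axis, negative values upstream), one panel per library, counted only up to the end of each gene, for the 195 defensin-like genes (red) and other genes weighted to their lengths (grey). In all 4 libraries the grey line is highest around the TSS, where the red line is lowest, and the red line is higher from 400 to 1000 bp downstream.

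Inside the genes most summits lay in one part. A summit within the gene was found at 24.6%, 23.6%, 23.6% and 24.1% of members, and at 25%, 19.1%, 27.1% and 17.8% of genes of like length, so the share at like length followed the replicate number and that of the members did not. In the 188 members with 2 coding exons, 207 summits lay within the gene over the 4 libraries. Of these, 176 (85.0%) lay in the second coding exon, which makes up 30.3% of the gene's bases, 1 lay in the intron between the coding exons, which makes up 35.3%, and none lay in the first coding exon, which makes up 10.1%. The remaining 11 lay before the start codon and 19 after the stop codon. None of 53, 49, 48 and 57 summits per library fell in the first coding exon, which allows a share of up to 6.25% in the library with the fewest. The 4 libraries hold repeated observations of the same genes, so these summits are not independent.

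The libraries were alike in this: the second coding exon held 83.0%, 87.8%, 89.6% and 80.7% of the summits inside members in WT replicates 1 and 2 and mbd9-3 replicates 1 and 2. In other genes with 2 coding exons, weighted to the members' lengths, it held 44.1%, 37.4%, 42.6% and 44.0%, where it makes up 32.9% of the bases, and the first coding exon held 18.2% to 29.4%. Counted by gene, 42, 41, 42 and 42 of the 188 members had a summit in the second coding exon, or 22.2 ± 0.266%, against 9.39 ± 2.29% at like length (SD over 4 libraries). Over all genes with 2 coding exons, which are longer, the shares were 20.6%, 12.9%, 22.8% and 12.4%. Within the exon the median position of the summits was at 46.6% to 50.6% of its length. Their spread along the exon was not measured, so this does not show that they gathered at its centre.

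In 68 members the second coding exon held a summit in at least 1 library (36.2%, against 19.9% at like length), and in 25 it held one in all 4 (13.3%, against 2.83%). By subfamily, a summit there in at least 1 library was found in none of the 7 PDF1 genes, 4 of 6 PDF2 genes, 1 of 2 PDF3 genes, 31 of 73 LCR genes and 32 of 100 DEFL genes. Base composition differed between the parts of the gene too. The G and C content was 41.7% in the second coding exon of members, 37.7% in the first, 24.4% in the intron, 28.2% before the start codon and 27.2% after the stop codon. Other genes were also weighted to the coarser length classes and to the difference in content between the second coding exon and the rest of the window. Their share with a summit in that exon was 16.7%, 12.2%, 17.1% and 11.2%, below the members in each library. Length classes and content both changed from the comparison at like length, so their parts cannot be told apart. The part of base composition in the placement was not tested.

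**Figure D4:**
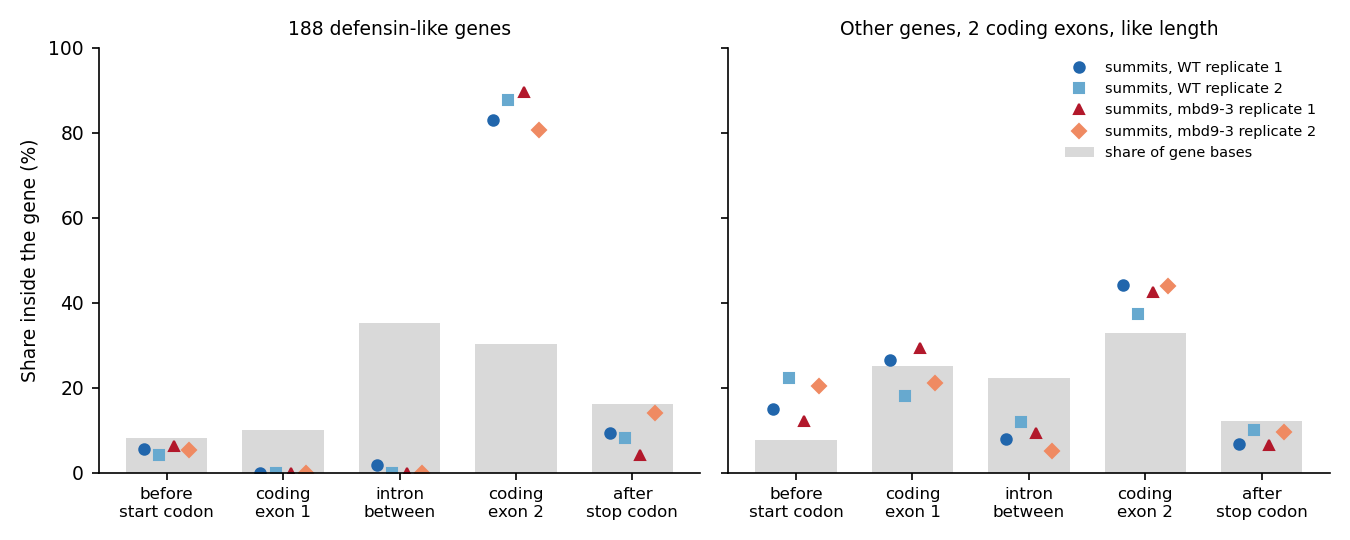
Where summits inside genes lay, for the 188 defensin-like genes with 2 coding exons (left) and other genes with 2 coding exons weighted to their lengths (right). Grey bars give each part's share of the gene's bases and points give its share of the summits in each library (y axis, percent); in members the second coding exon holds 80.7% to 89.6% of summits on 30.3% of the bases.

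How closely the positions recurred between libraries varied. In the 52 members with a peak in all 4, the strongest summits of the libraries spanned a median of 70 bp, within 20 bp in 10 members, within 50 bp in 21 and over 200 bp in 14. Where the strongest summit was inside the gene in all libraries (21 members) the median span was 36 bp, and where it was upstream in all (20 members) it was 60.5 bp. In 11 members the strongest summit was inside in some libraries and upstream in others, with a median span of 1074 bp.

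The 10 members of highest mean rank were AT5G37473, AT2G24625, LCR10, AT4G08485, LCR80, LCR58, AT5G08505, LCR9, LCR63 and LCR69. In 5 of them the strongest summit was inside the gene in all 4 libraries, in 4 it was upstream, and in LCR10 it was inside in 3 libraries and upstream in mbd9-3 replicate 2. The first, AT5G37473, is a 318-bp DEFL gene on chromosome 5 with 8 cysteine codons in its mature part and no known role assigned in the annotation used. Its fold enrichment was 20 and 15.9 in WT and 19.1 and 12.6 in mbd9-3, and its rank percentile was between 98.5 and 99.8 in the 4 libraries. The groups overlap, and mbd9-3 replicate 2 is lowest.

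Among the upstream peaks the closest agreement was at AT4G08485, a DEFL gene on chromosome 4 (5394425 to 5394782), whose summits lay at -238, -237, -236 and -234 bp from the TSS. Its fold enrichment was 11.3 and 14.3 in WT and 8.10 and 9.33 in mbd9-3 and its rank percentile was 96.9 and 98.9 in WT and 92 and 94.5 in mbd9-3, a difference that did not pass the test across genes given below. Its nearest neighbour was 2850 bp away, so no other gene's window held these summits. The upstream summits of AT5G08505 and LCR9, by contrast, also lay in the window of a neighbour in all 4 libraries and cannot be assigned to either gene. AT2G24625 ranked second, at fold enrichments of 9.83, 12.1, 12.9 and 10.4, but only 38.3% of the 32-base stretches in its window were unique, so fewer of its reads could be placed.

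The PDF1 genes, which include the jasmonate and ethylene markers, had low-ranking peaks. Each of the 7 had a peak in at least 1 library, but only PDF1.2b had one in all 4, at fold enrichments of 2.49 and 3.40 in WT and 2.16 and 2.51 in mbd9-3, ranks of 10.6, 35.1, 0.728 and 7.60. PDF1.2 itself had a peak only in mbd9-3 replicate 1, at a fold enrichment of 2.94 and -351 bp from the TSS. PDF1.2c had one in WT replicate 2 (3.44) and mbd9-3 replicate 2 (3.23), PDF1.3 and PDF1.4 in WT replicate 1 (3.28 and 3.16), PDF1.5 in WT replicate 1 (2.91) and both mbd9-3 libraries (2.58 and 3.43), and LCR67, which is PDF1.1, in mbd9-3 replicate 1 (2.17). No PDF1 peak exceeded a rank percentile of 40.2, and no pattern by genotype was common to them.

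The GCC box bound by ERF1 and ORA59 was looked for as GCCGCC on both strands in the 250 bases before the TSS. It was present in 4 members (PDF1.2, PDF1.2b, PDF1.5 and AT3G59930), or 2.05%, against 1.87% of all promoters. In PDF1.2 and PDF1.2b it sits in a stretch that both copies share, shown here from 20 bases before the box to the TSS with the box in capitals (chr5:17907639-17907880, minus strand, and chr2:11088960-11089122, plus strand).
PDF1.2: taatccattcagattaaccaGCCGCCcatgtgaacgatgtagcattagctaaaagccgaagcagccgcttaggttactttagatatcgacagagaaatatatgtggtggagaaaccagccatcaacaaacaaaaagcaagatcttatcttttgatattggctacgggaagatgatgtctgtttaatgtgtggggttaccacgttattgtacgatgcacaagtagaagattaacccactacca
PDF1.2b: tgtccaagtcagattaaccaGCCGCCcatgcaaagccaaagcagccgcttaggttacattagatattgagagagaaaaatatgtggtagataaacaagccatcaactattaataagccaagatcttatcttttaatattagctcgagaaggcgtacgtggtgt
The box begins 222 bp before the TSS in PDF1.2 and 143 bp before it in PDF1.2b. The summits of PDF1.2b lay at -72 and -66 bp from the TSS in WT replicate 2 and mbd9-3 replicate 2, at -209 bp in mbd9-3 replicate 1 and at 73 bp, inside the gene, in WT replicate 1. The match is a description of the letters in this window and not evidence of binding.

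Of the 6 PDF2 genes, 4 had a peak in all 4 libraries. LCR69 (PDF2.2) had fold enrichments of 5.97 and 8.98 in WT and 6.57 and 7.68 in mbd9-3, at the core promoter shown above, and the groups overlap. LCR68 (PDF2.3) had 2.91 and 4.45 in WT and 4.42 and 4.66 in mbd9-3, inside the gene in all libraries. PDF2.5 had 6.99 and 12.6 in WT and 7.36 and 3.95 in mbd9-3, between -391 and -319 bp from the TSS. LCR66 (PDF2.4) had a peak only in mbd9-3 replicate 1 (2.58), and LCR72 (PDF2.6), where 78.5% of the window was unique, had none. Of the PDF3 genes, whose coding sequences hold 18 and 19 cysteine codons in the mature part, LCR80 (PDF3.1) had a strong peak inside the gene at 13.2 and 9.36 in WT and 9.32 and 9.43 in mbd9-3, and LCR59 (PDF3.2) had none.

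**Figure D5:**
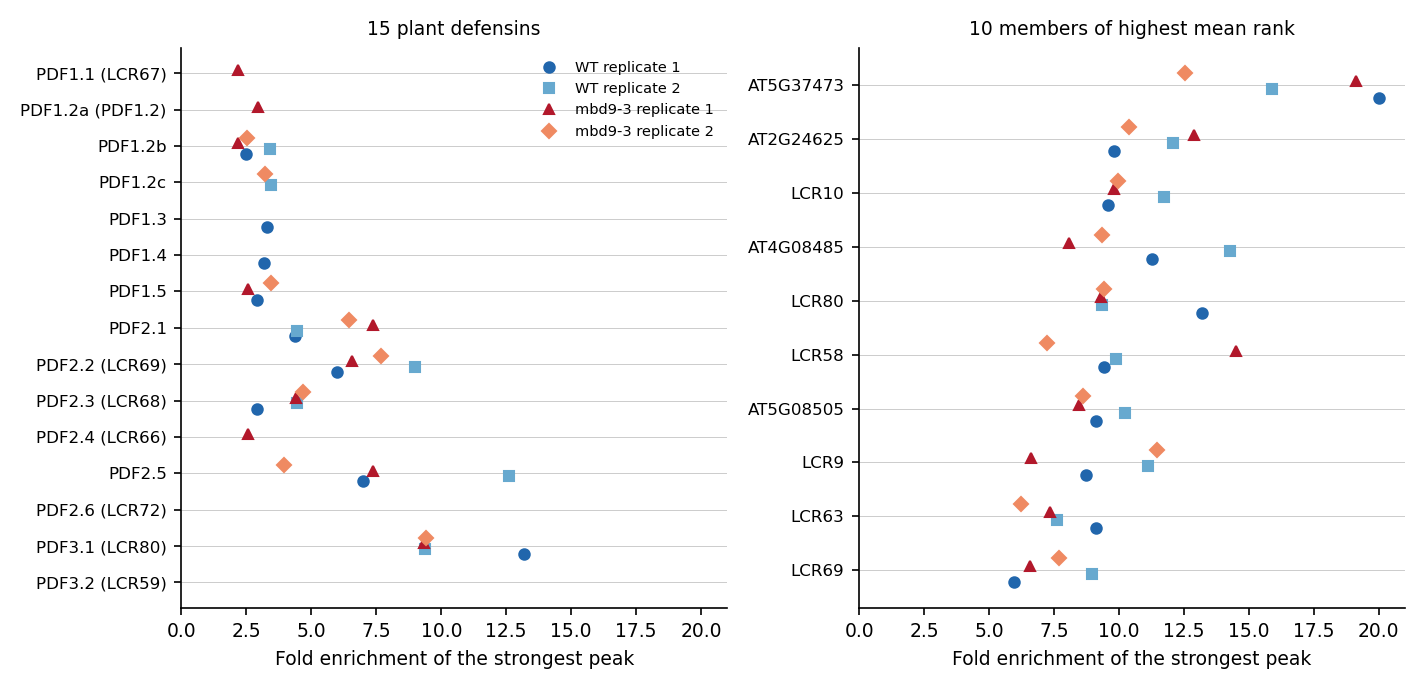
Fold enrichment of the strongest peak in each library (x axis, linear, one point per library) for the 15 plant defensins (left) and the 10 members of highest mean rank (right). A gene without a point in a library had no peak there; PDF1 genes lie at 3.44 or less, and AT5G37473 is highest at 12.6 to 20.

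Some members lie close together: 87 lay in 31 arrays of members with starts within 20 kb of the next, and 108 lay alone. A peak in all 4 libraries was found at 26 of the 87 array members (29.9%) and 26 of the 108 others (24.1%). Neighbours in an array differed. In the largest array, 7 LCR genes on chromosome 4 (14425441 to 14436717), LCR23, LCR21, LCR24 and LCR26 had no peak, LCR22 had one in WT replicate 1 (2.55), LCR25 in 3 libraries (2.18, 2.94 and 2.55, missing in WT replicate 2) and LCR27 in all 4. The fold enrichment of LCR27 was 4.73 and 5.72 in WT and 3.31 and 8.25 in mbd9-3, at summits between -726 and -704 bp from its TSS. In the array of 5 on chromosome 2 (528179 to 547156), LCR69, PDF2.1 and LCR68 had a peak in all 4 libraries and LCR72 and LCR73 in none. Of 22 members whose window was less than 90% unique, 5 had a peak in any library (22.7%), against 40.2% of genes of like length with such windows, and at such copies closed chromatin and discarded reads cannot be told apart.

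Among upstream regulators and receptors of these peptides, 7 of 10 listed genes were matched by symbol. Of these, 4 had a peak in all 4 libraries, near the share of 58.1% over all genes. ORA59 had fold enrichments of 6.86 and 6.17 in WT and 7.73 and 8.03 in mbd9-3, between -237 and -221 bp from its TSS, and MYC2, the main jasmonate factor, had 12 and 10.7 in WT and 10.8 and 10.8 in mbd9-3, at summits that also lay in the window of a neighbour in all 4 libraries. COI1, the jasmonate receptor, and EIN3, an ethylene factor, also had peaks in all 4. ERF1 had a peak in 3 libraries, the pollen tube receptor kinase PRK6 in 2, and MYB98 in 1, WT replicate 1 (3.10). The 5 LURE1 genes, which the rule does not take because their product is not named defensin-like, had no peak in any library, with 54.9% to 98.9% of their windows unique. The sequence GTAACNT, recognised by MYB98, was present on either strand in the 250 bases before the TSS of 32 members (16.4%). The share was 11.4% in all promoters and 13.4% at like length, without weighting to base composition. Of those 32 members, 8 had a peak in all 4 libraries and 14 in none, where the shares over all members were 26.7% and 43.6%.

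The design compares mbd9-3 with WT. The number of members with a peak was 76.0 ± 1.41 in WT and 77.0 ± 1.41 in mbd9-3 (SD, n = 2 each), a difference of 1 member that did not exceed the spread between replicates (two-sided p = 0.667 in an exact permutation test). No permutation of 4 libraries into pairs can give a p below 0.33. Between libraries of the same number the difference was 3 in number 1 and -1 in number 2. The median rank percentile was 48.3 ± 7.51 in WT and 51.8 ± 4.99 in mbd9-3, a difference of 3.52 (two-sided p = 0.667 in an exact permutation test), and 12.4 and -5.32 within the numbers. Its direction changed without WT replicate 1 (-1.79) and without mbd9-3 replicate 1 (-0.0045).

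A peak in both WT libraries and neither mbd9-3 library was found at 3 members (1.54%), against 1.75% of all genes. They were AT1G77525, at fold enrichments of 3.64 and 3.18, LCR35, at 2.89 and 2.22, and LCR17, at 3.28 and 2.54. The opposite pattern was found at 3 members (1.54%) against 0.893% of all genes. They were LCR7, at fold enrichments of 3.31 and 3.59, LCR15, at 2.94 and 2.51, and LCR3, at 3.81 and 2.93. LCR7 and LCR15 are separate genes on chromosome 4 whose summits lay inside each gene, and in LCR17 the 2 summits lay on opposite sides of the TSS. The highest rank percentile among these 12 peaks was 57.6, in LCR3.

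Peak strength was tested with limma, on normal scores of the within-list rank of each gene's strongest peak, for the 15935 genes with a peak in all 4 libraries. No gene passed an adjusted p of 0.05 (0% called; Benjamini-Hochberg), and 847 genes (5.32%) had an unadjusted p under 0.05. Among the 52 members tested none passed, 6 had an unadjusted p under 0.05, and the median difference, mbd9-3 minus WT, was -0.05 normal-score units against -0.08 over all genes. The 6 were AT4G22235, AT5G43401, AT4G22230, PDF2.1, AT4G08039 and PDF1.2b, each with limma's adjusted p of 0.905. PDF2.1 had fold enrichments of 4.37 and 4.45 in WT and 7.36 and 6.46 in mbd9-3, AT4G08039 had 4.37 and 5.40 in WT and 6.62 and 8.25 in mbd9-3, and AT5G43401 had 5.82 and 6.35 in WT and 3.54 and 3.02 in mbd9-3. These genes were picked by this same contrast, so their separation is a description. The summits of AT4G08039 and AT5G43401 also lay in the window of a neighbour in all 4 libraries. AT4G22230 and AT4G22235, neighbours in an array of 6 on chromosome 4, were each represented in mbd9-3 by the same peak (3.58 and 5.07), which lay inside AT4G22230 and in the upstream window of AT4G22235.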

How the data were processed

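ATAC-seq libraries from nuclei of flowers were analysed from the peak lists deposited by the authors, 1 per library. Per the study's methods and the labels, adaptors were trimmed with Trim Galore, reads were mapped to TAIR10 with Bowtie (Bowtie2 in the processing notes) keeping single matches, and organelle reads and duplicates were removed with SAMtools. The peak caller, its options and any Tn5 shift are not given in the sources used here. The peak names in the deposited lists mark each as called per library with no control. The columns were read by the narrowPeak layout, in which the deposited fold enrichment is taken as a ratio, signal at the summit over that library's own background. The deposited −log10 p-value and −log10 q-value also refer to a single list, and the score deposited by the authors was not used. Fold enrichment is not comparable between lists and was converted to a rank percentile within each list. Rows without a summit (45 to 86 per list) were placed at the middle of their interval.

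The TAIR10.1 annotation was used. Its nuclear chromosomes equal TAIR10, and all peaks ended within them. Genes of like length were the other protein-coding genes weighted to the members' distribution in classes of 100 bp up to 1500 bp, then up to 3000 bp and above. Where G and C content was weighted as well, the length classes were coarser, up to 500, 700 and 1000 bp and above. Values per library were compared by an exact permutation test. limma 3.58.1 in R 4.3.3 was used across genes and tested on simulated data. The remaining work ran in Python 3.11.15 (scipy 1.17.1, pandas 2.3.3, numpy 2.4.6; figures with matplotlib 3.10.9). Wilson intervals and limits at a count of 0 (3 counts) cover counting error only.

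The members and lists were chosen with earlier results of these data known. Named members were the plant defensins, the 10 of highest mean rank, members called on one side only, the largest array, and the longest and shortest gene. Other members were named after their values were seen: the 9 with a summit before the TSS, the other arrays and those with an unadjusted p under 0.05. The analyses of the 200 bp before the TSS, of coding exons and of base composition were also added after the summit positions were seen, and prefoldin 2 was set aside after the annotation was read. Alternatives were stricter q-values, equal list lengths, other windows, other length classes, omission of each library in turn and a block for the replicate number.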

Additional observations from a re-analysis of the deposited data

How the results depend on the processing

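Of 118 alternative values, 84 were counted as kept, 9 as reversed and 25 as moved. Differences between mbd9-3 and WT were judged by direction alone, and only these could be counted as reversed. A difference of 0 has no direction but was counted as kept. This applied to members with a peak without WT replicate 1 and without mbd9-3 replicate 1. Differences from genes of like length and the share in the second coding exon were kept within the SD over libraries. Where a difference from genes of like length changed sign, it was counted as moved. Counts of members on one side were kept within a fixed ratio, and limma counts if equal. The difference in members with a peak, mbd9-3 minus WT, changed direction with rows of −log10 q of at least 1.3 (-1.5) or 5 (-3.5), windows from 500 bp (-2.5) or 2 kb (-0.5) upstream, interval overlap (-2) and summits in another window left out (-1.5), and was 0 to 2 without single libraries. The difference in median rank was -5.38 with 1 kb upstream only and -1.79 to 8.83 without single libraries. The exact permutation test cannot give a p below 0.33 with 4 libraries, so it could not decide any of these differences. The cause of the changes was not tested.

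The difference of members from genes of like length, -8.24 points, was -3.47 with 2 kb upstream, -12.9 with 1 kb upstream only, 0.076 with summits in another window left out, -16.0 with genes in the 5th to 95th percentile of member length, where lengths are not weighted, and 3.97 with like G and C content. The rank difference was -2.75 at −log10 q of at least 5 and 0.392 with 2 kb upstream. The difference before the TSS, -10.2 points, was -5.56 at −log10 q of at least 5, -13.5 with an annotated 5′ UTR, -6.65 without one, -8.73 at the start codon, -6.40 with no other gene within 1 kb and -2.29 with like G and C content, and -10.6 to -9.73 without single libraries. The values with like G and C content used coarser length classes. The share of summits in the second coding exon was 85.9% at −log10 q of at least 5 and 83.6% to 86.7% without single libraries.

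Members on the WT side only numbered 1 at −log10 q of at least 5, 5 with 2 kb upstream, 5 with summits in another window left out and 5 to 12 without single libraries, where 1 library a side is enough. On the mbd9-3 side they numbered 0 at −log10 q of at least 5 and 6 to 13. limma called 0 genes under the alternatives run for it, which were the replicate block, ranks by −log10 p, genes with a peak in at least 2 libraries, −log10 q of at least 1.3 and leaving out each library. It was not run under the other settings.

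The shared replicate numbers do not establish pairs, since the labels give them no meaning. The deviations of same-numbered libraries correlated at 0.114 over 15935 genes. With the replicate block the differences were 1 member and 3.52 points (exact permutation test, p = 1, smallest possible 0.5), and limma called 0 genes, with 1165 at an unadjusted p under 0.05.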
